A study of Mus musculus with 4 samples.

Results

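The Usp genes encode ubiquitin-specific proteases, the largest family of deubiquitinases, which are enzymes that take the small protein ubiquitin off other proteins. They were chosen by symbol, as every gene named Usp with a number in the count table of SNRNP70-depleted mouse embryonic stem cells, without the Usp17 copies, pseudogenes and opposite-strand transcripts. This gave 49 genes out of 55401 in the table. The rule used no measured values, but the family was chosen with earlier results of these data known. After 5 h of auxin the labelled RNA of Usp8, Usp20, Usp45, Usp40 and Usp11 was lower, with log2 fold changes of -1.58 to -1.13, and that of Usp27x was 2.15-fold higher, while most of the family moved by less. In 5 of 16 sets of related genes one rose and another fell, and pairs of unrelated genes were not compared. All these changes are relative to the median gene. When the libraries were scaled to their mitochondrial RNA instead, 0 Usp genes were called higher, and few of all tested genes were.

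The 129/Ola embryonic stem cells were grown with serum and leukemia inhibitory factor. In all of them SNRNP70, which belongs to the U1 small nuclear ribonucleoprotein (snRNP), bore an auxin-inducible degron, so that the auxin IAA sends the tagged protein to the proteasome. The groups were SNRNP70AID cells given IAA for 5 h, whose genotype label states SNRNP70 degradation, and SNRNP70AID cells at 0 h, labelled WT although their titles name the same degron line. Each group had 2 libraries of new RNA, which takes up 4-thiouridine (4sU) and was then biotinylated and caught on streptavidin. The series compared SNRNP70 loss with loss of ZFP207 in U1 snRNP function, and only the SNRNP70 arm was used here. The sources used here do not say whether the degron line was a clone, how long the RNA was labelled or whether a spike-in was added. Auxin-treated cells without the degron were not analysed here, so an effect of the auxin itself and loss of SNRNP70 cannot be told apart. The series text calls the replicates independent, but nothing says that they came from separate cultures, so the p-values may measure technical spread alone.

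Ubiquitin marks proteins for the proteasome, for sorting into lysosomes or for signalling, and deubiquitinases undo or trim these marks. A USP enzyme carries a catalytic domain with an active-site cysteine, and the parts around it direct it to histones, repair proteins, endosomes, mitochondria, the nucleolus or the spliceosome. U1 snRNP binds the start of introns and is also known to protect long transcripts from premature cleavage and polyadenylation.

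Library totals were 10349277 to 15645894 counts at 5 h and 7174772 to 17752887 counts at 0 h, and the Usp genes took 0.609% to 0.612% of them at 5 h and 0.648% to 0.665% at 0 h. Replicates correlated at r = 0.965 (5 h) and 0.969 (0 h) across genes on log CPM (counts over library size, TMM-scaled), while a 5 h library and a 0 h library correlated at 0.906 to 0.931. The RNA of Snrnp70 averaged 463 ± 17.3 CPM at 5 h and 246 ± 4.46 CPM at 0 h (SD, n = 2 each), which checks nothing, since the degron acts on the protein. All 10 embryonic stem cell markers listed were detected, with summed levels of 4510 to 4592 CPM at 5 h and 4270 to 4497 CPM at 0 h. Singly, 4 of them were called higher, among them Sox2 (log2 fold change 0.86) and Klf4 (0.61). Another 3 were called lower, Tdgf1 (-0.64), Tfcp2l1 (-0.52) and Nanog (-0.27). With mitochondrial scaling 0 were higher and 7 lower. Of all genes with a mean of at least 5 CPM, 29.6% were higher and 27.6% lower with TMM. The 8 fibroblast markers summed to 12.5 to 13.1 CPM at 5 h and 9.16 to 10.1 CPM at 0 h, with 5 of them, among them Col3a1 and Dcn, at 0 in every library. The 10 germ layer markers summed to 22.2 to 22.3 CPM at 5 h and 9.42 to 15.5 CPM at 0 h. Of the 5 that were tested, Sox1 was called higher (log2 fold change 1.46, and 0.62 with mitochondrial scaling) and 4 did not pass. The 6 trophectoderm markers summed to 148 to 166 CPM at 5 h and 93.4 to 95.7 CPM at 0 h, with Cdx2 at 0. Nearly all of it came from Tfap2c, which stem cells also express and which was called higher (0.77, and -0.08 with mitochondrial scaling). The part of these marker shifts in the results was not tested, and in such bulk RNA fewer cells of a type and less RNA per cell cannot be told apart.

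Stretches upstream of the start site are shown for 4 called Usp genes, those with the 2 lowest and the 2 highest log2 fold changes among the 9 whose window lay wholly outside the annotated gene, to let the promoters of genes that moved in opposite directions be compared. Each is the 250 bases before the start, 5′ to 3′ on the strand of the gene, from RefSeq on GRCm38.p6. Capitals mark the GC box GGGCGG, the CCAAT box and the ETS site CCGGAAG, searched on both strands. Usp20 (chr2:30982029-30982278, plus strand) and Usp11 (chrX:20703659-20703908, plus strand) fell. Usp10 (chr8:119910110-119910359, plus strand) and Usp27x (chrX:7375831-7376080, minus strand) rose.
Usp20: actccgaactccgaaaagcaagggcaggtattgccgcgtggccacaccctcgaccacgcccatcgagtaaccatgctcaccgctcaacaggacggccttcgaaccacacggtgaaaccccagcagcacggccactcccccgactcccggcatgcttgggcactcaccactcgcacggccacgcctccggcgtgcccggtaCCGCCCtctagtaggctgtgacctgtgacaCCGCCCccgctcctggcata
Usp11: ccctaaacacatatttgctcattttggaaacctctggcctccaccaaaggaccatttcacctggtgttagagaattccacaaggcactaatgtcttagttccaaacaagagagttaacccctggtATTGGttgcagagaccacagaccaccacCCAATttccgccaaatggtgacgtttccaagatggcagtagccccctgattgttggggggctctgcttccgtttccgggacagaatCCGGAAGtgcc
Usp10: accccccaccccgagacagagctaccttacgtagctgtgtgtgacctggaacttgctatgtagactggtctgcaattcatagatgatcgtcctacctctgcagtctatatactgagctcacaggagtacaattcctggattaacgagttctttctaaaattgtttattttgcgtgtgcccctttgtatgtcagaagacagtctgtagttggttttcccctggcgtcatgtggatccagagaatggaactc
Usp27x: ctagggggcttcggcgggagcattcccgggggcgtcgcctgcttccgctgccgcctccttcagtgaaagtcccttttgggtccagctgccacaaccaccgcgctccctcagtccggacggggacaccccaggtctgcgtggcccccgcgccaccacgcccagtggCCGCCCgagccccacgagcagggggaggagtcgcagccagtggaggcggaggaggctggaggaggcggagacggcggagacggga

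RefSeq gave a window for 37 of the 49 Usp genes, of which 12 had no base inside the annotated span. The windows of Usp8, Usp45 and Usp40, which fell by more than Usp11, lay partly or wholly inside it and are not shown. The windows of Usp20 and Usp27x were rich in CG dinucleotides, with 23 and 24 of them, whereas those of Usp11 and Usp10 held 5 and 6. Direction did not follow this measure among the 4. Over the family the median was 24.5 CG dinucleotides in 10 windows of genes that rose and 23 in 11 windows of genes that fell, against 15 over the 14009 windows of tested genes. The GC box, bound by Sp1-type factors, was in 7 of the 10 and in 8 of the 11. It was in 67.6% of all Usp windows, against 56.8% of windows of tested genes and 32.7% of all 32851 windows. The ETS site was in 18.9% of Usp windows against 13.1% of windows of tested genes and 6.91% of all windows, and the CCAAT box in 21.6% against 35.7% and 33.8%. The TATA box TATAAA was in 2 Usp windows, or 5.41%, against 6.55% and 12.4%. The cyclic AMP response element TGACGTCA was in none, against 2.48% and 1.55%. A GC box was thus about as frequent in windows of genes that rose as in those of genes that fell.

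Of the 49 Usp genes, 48 passed the filter on low counts. Usp18, which removes the ubiquitin-like protein ISG15, had 0 counts in every library, where 3 counts would have been 0.207 to 0.324 CPM at 5 h and 0.154 to 0.382 CPM at 0 h. In the edgeR quasi-likelihood fit over all 17344 tested genes, whose Benjamini-Hochberg adjusted p-values are the ones given below, 14 Usp genes were higher at 5 h, 14 were lower and 20 did not pass the threshold of 0.05. That is 29.2% each way, against 22.0% of all tested genes that were higher and 21.2% that were lower. Calls in either direction made up 58.3% of the Usp genes and 43.2% of all tested genes. Among genes with a mean of at least 5 CPM, a limit chosen after seeing the data, the Usp shares were 31.1% higher and 31.1% lower of 45, against 29.6% and 27.6% of all 11526 such genes. The share of Usp genes called was therefore near that of other well-measured genes. The median log2 fold change of the 48 was 0.14, with quartiles of -0.38 and 0.41, against -0.02 for all tested genes, with quartiles of -0.64 and 0.55.

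The calls covered -1.58 to -0.31 among the genes that fell and 0.35 to 1.10 among those that rose. A change of at least 1 on the log2 scale with a call was seen in 5 Usp genes that were lower and in 1 that was higher, against 10.2% and 7.60% of all tested genes. In 39 of the 48 genes the 5 h and 0 h libraries did not overlap, or 81.3%, against 73.5% of all tested genes. Of the 20 genes that did not pass, 11 were also without overlap and 9 had a mean under 20 CPM.

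**Figure D1:**
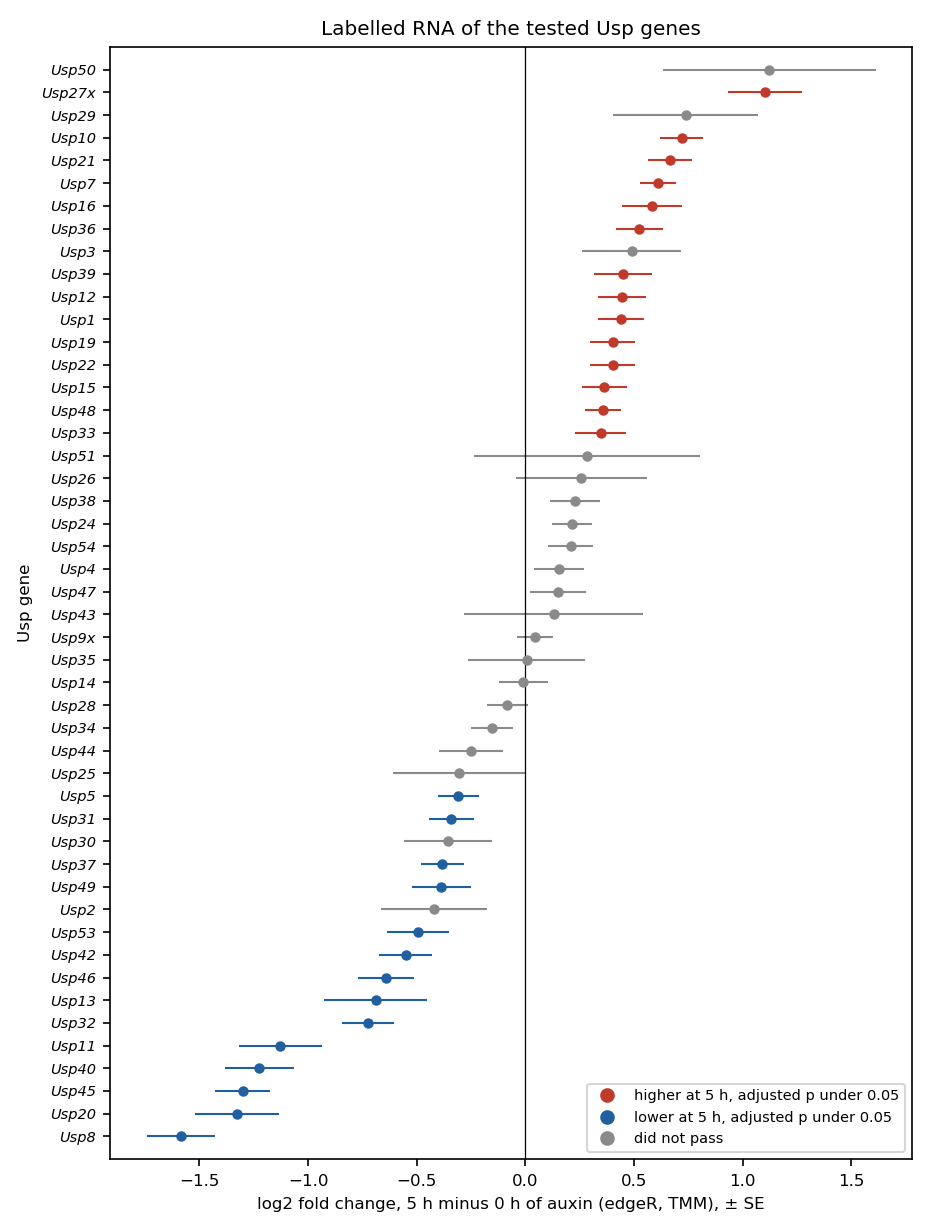
Log2 fold change of the 48 tested Usp genes, 5 h minus 0 h, with its standard error as a bar (edgeR, TMM scaling, 2 libraries per group). Red points passed upward and blue points downward at an adjusted p of 0.05, and the values run from -1.58 (Usp8) to 1.12 (Usp50, which did not pass). With mitochondrial scaling 13 of the 14 red genes had values below 0.

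The direction of the genes that rose depended on the scaling. With library totals 0 of the 14 had values below 0, and with mitochondrial scaling 13 did. The library-total and mitochondrial scalings both moved genes downward, so neither could reverse the genes that fell. Scaling to library totals moved the median of all tested genes to -0.28, and scaling to the mitochondrially encoded RNAs moved it to -0.86. These RNAs took 6.03% and 7.17% of the counts at 5 h, against 4.41% and 4.34% at 0 h. Whether mitochondrial RNA itself changed with auxin was not tested, so this scaling is no absolute reference. With library totals 4 Usp genes were higher (Usp27x, Usp10, Usp21 and Usp7, all among the 14) and 20 were lower, and with mitochondrial scaling 0 were higher and 32 lower. Calls over all tested genes shifted the same way, with fewer higher and more lower under both scalings than with TMM. The direction of this shift was therefore not particular to the Usp genes. Under both scalings a smaller share of Usp genes than of all tested genes was called higher, and a larger share lower. Calls among the well-measured genes were not counted under these scalings, so whether the Usp genes differed from those was not tested. All 14 genes that fell were called lower under both scalings, which the downward shift favoured beforehand, so this is no check of those calls. Of the 14 that rose, 13 had values below 0 with mitochondrial scaling, 4 of them (Usp33, Usp48, Usp15 and Usp1) called lower, and Usp27x was at 0.27 with adjusted p = 0.392. All changes below are therefore relative to the median gene with TMM. Without 0 h replicate 2, 6 Usp genes were called higher and 8 lower, with 9 of the 14 higher and 6 of the 14 lower calls lost and Usp29 gained. Without 0 h replicate 1, 10 were called each way, with 4 calls lost in each direction.

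Role groups follow, each of 8 tested genes or fewer, and no test of a group as a whole was made. Their calls stand beside 29.6% higher and 27.6% lower among all genes with a mean of at least 5 CPM. Of 8 chromatin enzymes, which remove ubiquitin from histones H2A and H2B, 4 rose, 1 fell and 3 did not pass with TMM. Their median log2 fold change of 0.45 moved to 0.18 under library totals and to -0.38 under mitochondrial scaling. Usp21, which acts on histone H2A, had 123 and 119 CPM at 5 h, against 76.6 and 75.7 CPM at 0 h. Both 5 h libraries were far above both 0 h libraries, with a log2 fold change of 0.67 ± 0.10 (SE) and adjusted p = 0.000466. Usp27x, an intronless relative of Usp22 on the X chromosome, had 38.5 and 31.0 CPM at 5 h, against 16.3 and 16.2 CPM at 0 h. It had the highest fold change among the genes called, 1.10 ± 0.17 with adjusted p = 0.000549. Usp16, another histone H2A enzyme, had 90.9 and 95.8 CPM at 5 h, against 70.5 and 53.2 CPM at 0 h. Its 0 h libraries were the more spread, without reaching the 5 h values, and it rose by 0.58 ± 0.14 on the log2 scale (adjusted p = 0.00633).

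Usp22, the enzyme of the SAGA coactivator that acts on histone H2B, rose by 0.40 ± 0.10, with 153 ± 5.69 CPM at 5 h and 116 ± 9.73 CPM at 0 h (SD, n = 2 each). Usp49, which acts on histone H2B and in human cells has been linked to splicing during transcription, fell, with 36.5 ± 2.87 CPM at 5 h and 47.9 ± 2.77 CPM at 0 h. Usp44, also a histone H2B enzyme, was at -0.25, Usp3 at 0.49 and Usp51 at 0.28, and none of these passed. Usp51 had only 20 to 75 counts per library at 5 h and 14 to 80 at 0 h. Without 0 h replicate 2 the calls of Usp16 (adjusted p = 0.0917), Usp22 (0.156) and Usp49 (0.239) were lost, and that of Usp49 was also lost without 0 h replicate 1 (0.0962), without 5 h replicate 2 (0.130), with DESeq2 (0.115) and without the count filter (0.0684). Gm20517, a RefSeq gene that spans the whole of Usp49, had a log2 fold change of 0.85 and did not pass, and without a stated strand setting its reads cannot be told apart from those of Usp49.

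The enzymes of DNA repair and p53 control had calls in both directions, as the other well-measured genes did. Of 8 genes, 4 rose, 2 fell and 2 did not pass, with a median of 0.25 that moved to -0.01 under library totals and to -0.60 under mitochondrial scaling. Usp7, which stabilises the p53 ligase Mdm2 and p53 itself, had 827 and 814 CPM at 5 h, against 520 and 554 CPM at 0 h. It had the most CPM of the family at 5 h, a scale that does not correct for transcript length, and rose by 0.61 ± 0.08 (adjusted p = 0.000237). Usp10, which acts on p53 in the cytoplasm and binds the stress granule protein G3bp1, rose by 0.72 ± 0.10, with 393 ± 25.5 CPM at 5 h and 238 ± 22.9 CPM at 0 h (adjusted p = 0.000260). Usp48, which acts on histone H2A at sites modified by the BRCA1 ligase, had 663 and 708 CPM at 5 h, against 530 and 538 CPM at 0 h. The groups stood apart by more than their spread, with a change of 0.36 ± 0.08 (adjusted p = 0.00546).

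Usp1, which with its partner Wdr48 removes ubiquitin from FANCD2 and PCNA, rose by 0.44 ± 0.11 (adjusted p = 0.00713). Usp45, which acts on the excision repair nuclease subunit ERCC1, had 28.7 and 30.7 CPM at 5 h, against 71.5 and 74.6 CPM at 0 h. This is a change of -1.30 ± 0.13, or 2.46-fold lower, with adjusted p = 4.23e-05, the lowest of the family. Usp11, which acts with BRCA2 in homologous recombination, had 19.3 and 13.4 CPM at 5 h, against 36.9 and 35.4 CPM at 0 h. Its 5 h libraries differed from each other and still lay well below 0 h, at -1.13 ± 0.19 (adjusted p = 0.000887). Usp28, which stabilises Myc, was at -0.08 and Usp47, linked to DNA polymerase beta, at 0.15, and neither passed. The calls of Usp1 and Usp48 were lost without 0 h replicate 1 (adjusted p = 0.0568 and 0.0806), and that of Usp48 also without 0 h replicate 2 (adjusted p = 0.0846).

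Of the 3 members tied to the spliceosome, 2 rose and 1 did not pass, and with mitochondrial scaling 0 rose and 2 fell. Usp39, a zinc finger protein of the U4/U6.U5 tri-snRNP that lacks the catalytic residues of its relatives, had 57.8 and 51.4 CPM at 5 h, against 41.8 and 38.0 CPM at 0 h. It rose by 0.45 ± 0.13 (adjusted p = 0.0184) without overlap of the groups. Usp15, which in human cells works with the adaptor SART3 on a tri-snRNP protein, had 172 and 194 CPM at 5 h, against 135 and 150 CPM at 0 h. It rose by 0.36 ± 0.10 (adjusted p = 0.0160). Usp4, which uses the same adaptor, had 98.6 and 89.4 CPM at 5 h, against 90.0 and 78.6 CPM at 0 h. Its libraries overlapped between the groups, and its change of 0.15 ± 0.11 did not pass (adjusted p = 0.309). The median of the 3 was 0.36, and -0.49 with mitochondrial scaling. The Usp39 call was lost without 5 h replicate 1 or 0 h replicate 2 (adjusted p = 0.0535 and 0.152), and that of Usp15 without either 0 h replicate (adjusted p = 0.166 and 0.0562).

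Of 5 enzymes of ubiquitin recycling and protein quality control, 1 rose, 2 fell and 2 did not pass (median -0.31, and -0.57 with library totals). Usp19, which is anchored in the endoplasmic reticulum, had 201 and 172 CPM at 5 h, against 143 and 139 CPM at 0 h. Both 5 h values were higher, and the change was 0.40 ± 0.10 (adjusted p = 0.00979), or -0.43 with mitochondrial scaling. Usp5, which takes apart free ubiquitin chains, fell, with 115 ± 3.86 CPM at 5 h and 142 ± 0.271 CPM at 0 h (log2 fold change -0.31 ± 0.10, adjusted p = 0.0243). Its relative Usp13 fell by 0.69 on the log2 scale (adjusted p = 0.0371). Usp14, which sits on the proteasome, was at -0.01 ± 0.11, with 228 ± 23.3 CPM at 5 h and 230 ± 27.1 CPM at 0 h. Usp25 was low, at 5.26 CPM at 5 h and 6.43 CPM at 0 h, and did not pass. The Usp19 call was lost without 0 h replicate 2 (adjusted p = 0.0994), that of Usp5 without either 0 h replicate (0.163 and 0.169) or 5 h replicate 2 (0.0523), and that of Usp13 without 0 h replicate 1 (0.347), 5 h replicate 1 (0.0744) or 5 h replicate 2 (0.0576), with DESeq2 (0.124) and with a replicate block (0.0520).

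Enzymes of endosomes, other membranes and mitochondria included the gene with the lowest fold change of the family. Of 7 genes, 3 fell, 1 rose and 3 did not pass, with a median of -0.35, which was -0.62 with library totals. Usp8, which sorts receptors on endosomes together with the ESCRT protein Stam, had 19.6 and 26.0 CPM at 5 h, against 66.2 and 69.9 CPM at 0 h. Its change was -1.58 ± 0.16 with adjusted p = 4.67e-05, and it lay at the 5.30 percentile of log2 fold changes over all tested genes. Usp20, which binds the VHL tumour suppressor, had 9.05 and 8.86 CPM at 5 h, against 22.8 and 22.1 CPM at 0 h. Replicates were close to each other in both groups, and the change was -1.33 ± 0.19 (adjusted p = 0.000388). Usp33, its relative that binds the same protein, had 77.1 and 85.4 CPM at 5 h, against 66.7 and 60.4 CPM at 0 h. It rose by 0.35 ± 0.12 (adjusted p = 0.0343).

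Usp32, a membrane-anchored enzyme, fell by 0.72 on the log2 scale (adjusted p = 0.000738). Usp9x, an abundant X-linked enzyme of protein stability and cell polarity, had 626 and 641 CPM at 5 h, against 600 and 628 CPM at 0 h. These values overlapped, and the difference of 0.04 ± 0.08 did not pass (adjusted p = 0.699). The mitochondrial enzyme Usp30, which opposes the ligase parkin, was at -0.35 ± 0.20, and Usp35 at 0.01 ± 0.27, and neither passed. The Usp33 call was lost without 0 h replicate 1 (adjusted p = 0.0718), 0 h replicate 2 (0.265) or 5 h replicate 2 (0.0657) and with DESeq2 (0.0575). The calls of Usp8, Usp20 and Usp32 passed in each of the 13 alternatives run. Among these, library totals and mitochondrial scaling favoured lower calls and so check nothing here.

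Among the cell cycle and nucleolar members, Usp36, which acts on nucleolar proteins, had 257 and 228 CPM at 5 h, against 181 and 155 CPM at 0 h. The groups did not overlap, and the change was 0.52 ± 0.11 (adjusted p = 0.00269), or -0.31 with mitochondrial scaling. Usp42, its relative, had 75.5 and 65.3 CPM at 5 h, against 96.1 and 111 CPM at 0 h. It fell by 0.55 on the log2 scale (adjusted p = 0.00420). Usp37, which stabilises cyclin A, fell as well, with 201 ± 19.4 CPM at 5 h and 262 ± 14.3 CPM at 0 h (log2 fold change -0.38 ± 0.10, adjusted p = 0.0106). Cnot9, which overlaps Usp37 over 24807 bases, had a log2 fold change of -1.06 and was called lower, and reads of the pair cannot be told apart without a strand setting. Usp2, which stabilises cyclin D1, was at -0.42 ± 0.24 and did not pass. Without 0 h replicate 2 the calls of Usp36 (adjusted p = 0.0599), Usp42 (0.0631) and Usp37 (0.133) were lost.

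Of 8 tested genes of signalling or less defined function, 1 rose, 3 fell and 4 did not pass, with a median of -0.01. Usp40 had 17.2 and 21.7 CPM at 5 h, against 45.7 and 44.5 CPM at 0 h. It fell by 1.22 on the log2 scale, or 2.33-fold (adjusted p = 0.000204). It passed in all 13 alternatives, of which library totals and mitochondrial scaling favoured a lower call. Usp12 and Usp46 are close relatives that both depend on Wdr48. Usp12 had 85.1 and 90.8 CPM at 5 h, against 66.6 and 62.4 CPM at 0 h, a rise of 0.44 ± 0.11 (adjusted p = 0.00810) that was -0.40 with mitochondrial scaling. Usp46 had 33.4 and 34.8 CPM at 5 h, against 52.0 and 54.5 CPM at 0 h, a change of -0.64 ± 0.13 (adjusted p = 0.00232). The pair thus went opposite ways with TMM. Usp31 fell by 0.34 on the log2 scale (adjusted p = 0.0232). The very large enzymes Usp34, which acts on axin in Wnt signalling, and Usp24 were at -0.15 ± 0.10 and 0.21 ± 0.09, and Usp38 and Usp43 at 0.23 and 0.13, and none passed. The call of Usp12 was lost without 0 h replicate 2 (adjusted p = 0.101), and that of Usp31 without either 0 h replicate (0.281 and 0.0672).

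Of 5 members with restricted expression or a divergent catalytic domain, 1 fell and 4 did not pass. Usp53, long listed as inactive, had 58.8 and 46.0 CPM at 5 h, against 69.6 and 78.9 CPM at 0 h. Both 5 h values were lower, and the change was -0.49 ± 0.14 (adjusted p = 0.0175), a call lost without 5 h replicate 2 (0.0599) or 0 h replicate 2 (0.132). Its relative Usp54 was at 0.21 ± 0.10. Usp50 had 3.80 and 2.81 CPM at 5 h, against 1.80 and 1.15 CPM at 0 h. Its fold of 2.18 rested on 9 to 55 counts per library and did not pass (adjusted p = 0.0882). Usp29, an imprinted gene next to Peg3, was at 0.74 ± 0.33 and the X-linked Usp26, known from testis, at 0.26 ± 0.30, both below 15 CPM and not past the threshold.

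**Figure D2:**
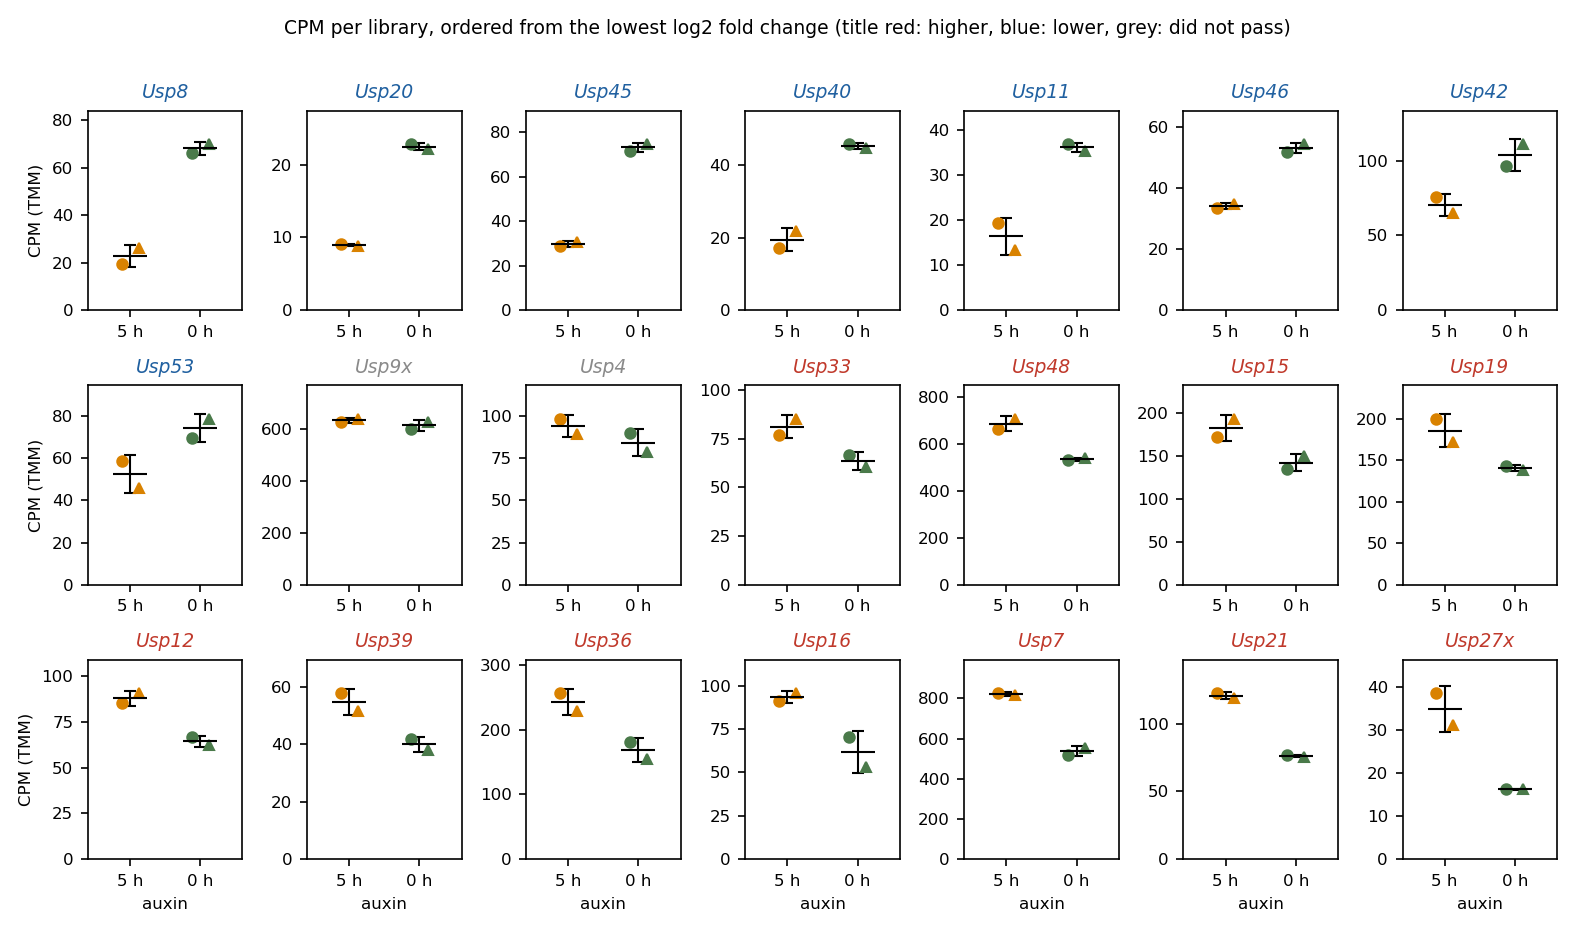
CPM (TMM-scaled) of 21 Usp genes in each library, 5 h left and 0 h right, with circles for replicate 1, triangles for replicate 2, a horizontal line for the mean and bars for the SD (n = 2 each). Panels run from Usp8, with 19.6 and 26.0 CPM at 5 h against 66.2 and 69.9 CPM at 0 h, to Usp27x, with 38.5 and 31.0 CPM at 5 h against 16.3 and 16.2 CPM at 0 h. The genes with red titles other than Usp27x had values below 0 with mitochondrial scaling.

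Related Usp genes were set against each other within each library, where a ratio of counts does not depend on the scaling. Of 16 sets of related genes, 5 held a gene called higher and another called lower. With 29.2% of the Usp genes called each way, unrelated genes can form such pairs too, and how often they do was not tested. The 5 related pairs were picked for their opposite calls, so the direction of the ratios was fixed by the choice and is a description. The ratio of Usp16 to Usp45 counts was 3.17 and 3.12 at 5 h, against 0.985 and 0.713 at 0 h. Usp45 therefore had the larger count at 0 h and Usp16 at 5 h, with a ratio 3.75 times as high at 5 h. The ratio of Usp33 to Usp20 was 8.52 and 9.63 at 5 h, against 2.93 and 2.73 at 0 h. Usp15, set against Usp11 with which it shares its domain layout, had ratios of 8.91 and 14.5 at 5 h and of 3.67 and 4.23 at 0 h. The 5 h libraries were further apart there than the 0 h libraries, without overlap. The ratio of Usp12 to Usp46 was 2.55 and 2.61 at 5 h, against 1.28 and 1.14 at 0 h. That of Usp36 to Usp42 was 3.40 and 3.50 at 5 h, against 1.89 and 1.40 at 0 h. Over the 5 pairs the ratio was 2.12 to 3.75 times as high at 5 h, and with 2 libraries against 2 no exact permutation test can give a two-sided p below 0.333.

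**Figure D3:**
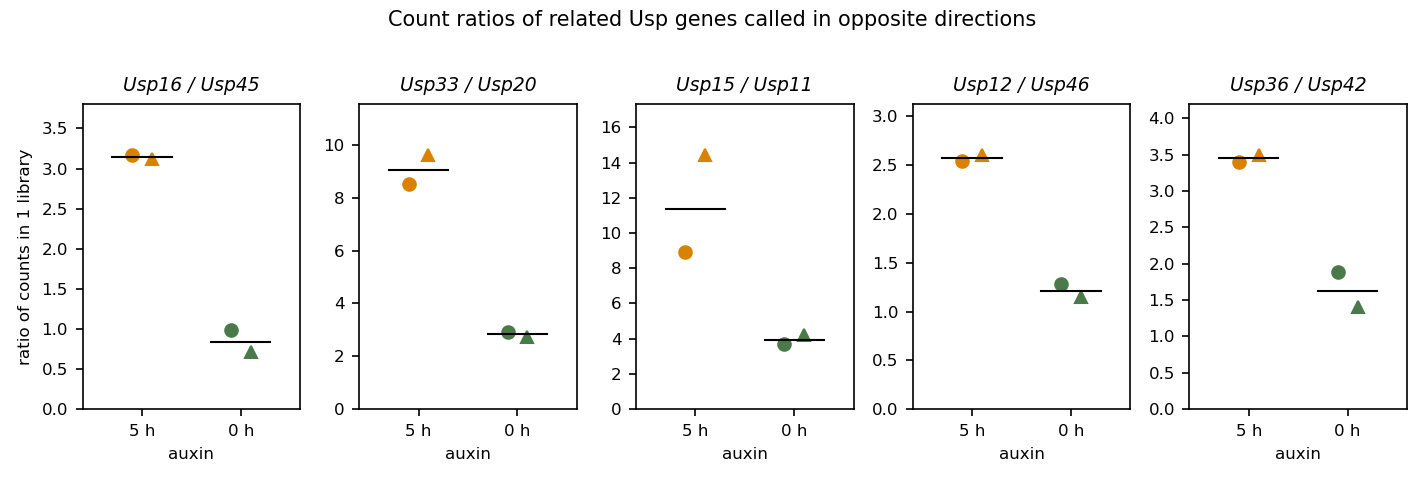
Ratio of the counts of related Usp genes within each library for the 5 pairs called in opposite directions, 5 h left and 0 h right, with circles for replicate 1, triangles for replicate 2 and lines for the geometric mean. The ratio of Usp16 to Usp45 is 3.17 and 3.12 at 5 h against 0.985 and 0.713 at 0 h, and no pair overlaps between the groups.

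Other related genes moved alike or not past the threshold. Usp22 and Usp27x both rose with TMM, and the ratio of Usp22 to Usp27x was 4.08 and 4.80 at 5 h, against 7.51 and 6.73 at 0 h, so that Usp27x gained more. Usp5 and Usp13 both fell. The giant enzymes Usp9x and Usp34, neither of which passed, had ratios of 1.25 and 1.10 at 5 h, against 1.03 and 1.01 at 0 h.

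The Usp genes are long, with a median span from start to end of 50.8 kb, against 19.4 kb over 14970 tested genes with a known span. Across the 48 tested Usp genes Spearman's rho between span and log2 fold change was -0.26, and across the 14970 genes it was -0.30. Genes are not independent replicates and share the same 4 libraries, so these are descriptions. Median spans were 29.6 kb for the Usp genes that rose and 59.8 kb for those that fell. Of 8 Usp genes over 100 kb, 0 rose and 3 fell, with a median of -0.23, against -0.29 for all tested genes of that class. Of 16 from 50 to 100 kb, 4 rose and 7 fell, with a median of 0.02 against -0.28. Of 17 from 20 to 50 kb, 6 rose and 2 fell, with a median of 0.23 against -0.21. Of 5 from 5 to 20 kb, 3 rose and 2 fell, with a median of 0.40 against -0.003. Of 2 under 5 kb, 1 rose and 0 fell, with a median of 0.69 against 0.49. Calls of all tested genes were not counted by length class. Over all classes 22.0% were higher and 21.2% lower, so the Usp counts by class are descriptions. In all, 29 of the 48 lay above the median of their length class.

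Of the 3 shortest members, Usp27x (3.24 kb) and Usp21 (6.01 kb) rose, and Usp51 (4.90 kb) did not pass. Length did not order the rest closely. Usp8 (52.1 kb) and Usp45 (70.7 kb) lay 1.30 and 1.02 log2 units below the median of their class, whereas Usp7 (68.3 kb) lay 0.90 above the same median. Usp11, of 16.6 kb, lay 1.12 below its class.

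**Figure D4:**
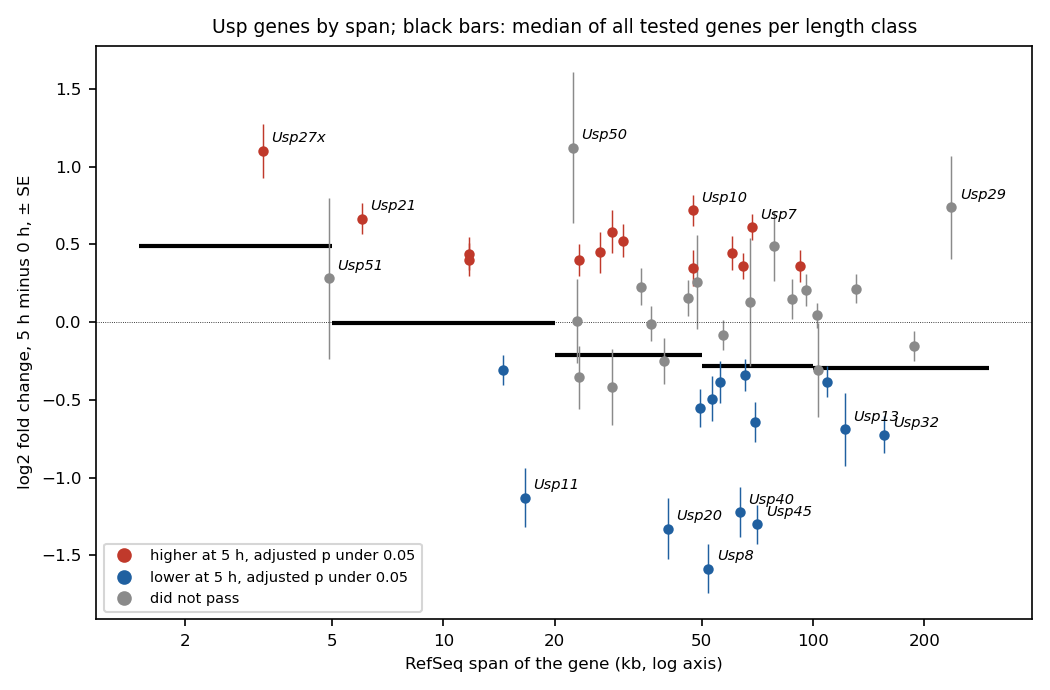
Log2 fold change (5 h minus 0 h, TMM, bars for SE) of the 48 tested Usp genes against their RefSeq span in kb on a log axis, with black bars for the median of all tested genes in each length class. Usp11 (16.6 kb), Usp20, Usp8, Usp40 and Usp45 lie at -1.13 or below, while Usp7 (68.3 kb) lies at 0.61 with TMM and at -0.23 with mitochondrial scaling.

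Genes that work with the Usp enzymes were read from the same fit. Of 14 partners of Usp enzymes, 7 rose and 4 fell, with a median of 0.38 that was -0.47 with mitochondrial scaling. Sart3, the adaptor of Usp4 and Usp15, had 292 and 250 CPM at 5 h, against 135 and 120 CPM at 0 h. Its rise of 1.08 ± 0.11 (adjusted p = 4.92e-05), 0.25 and not past the threshold with mitochondrial scaling, stood beside 0.15 for Usp4 and 0.36 for Usp15. G3bp1, the partner of Usp10, fell by 0.60 on the log2 scale (adjusted p = 0.000474), and Herc2, a ligase that binds Usp16, by 0.70 (adjusted p = 0.000247). Usp10 and Usp16 themselves had risen with TMM. Other partners moved with their enzymes. Wdr48 rose by 0.34 ± 0.11, as Usp1 and Usp12 did and Usp46 did not, and was at -0.50 with mitochondrial scaling. It is named after its values were seen.

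Among 31 tested deubiquitinases of other families, 12 rose and 7 fell, with a median of 0.19 (-0.65 with mitochondrial scaling). Otud1 had 32.1 and 35.5 CPM at 5 h, against 9.93 and 9.16 CPM at 0 h, and its log2 fold change of 1.81 ± 0.18 (adjusted p = 4.46e-05) passed under each alternative. Atxn3, the ataxin of Machado-Joseph disease, had 34.6 and 38.7 CPM at 5 h, against 94.0 and 102 CPM at 0 h, a change of -1.42 ± 0.12 (adjusted p = 2.33e-05). Vcpip1, which acts with the ATPase VCP, rose by 0.59 ± 0.09, and was at -0.26 with mitochondrial scaling. Of the 3 genes that share the USP fold under another name, Pan2, a subunit of a deadenylase, fell by 0.57 on the log2 scale (adjusted p = 0.00611), Uspl1, which acts on SUMO, was at 0.22 ± 0.08 (adjusted p = 0.0493), and Cyld, which trims chains in NF-kappaB signalling, was at -0.33 and did not pass. Without 0 h replicate 2 Pan2 did not pass (adjusted p = 0.0952), and Uspl1 did not pass without either 0 h replicate (0.289 and 0.299). Uspl1 was also at -0.044 with library totals and called lower, at -0.63, with mitochondrial scaling (adjusted p = 0.00288).

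Of 31 tested E2 enzymes, which carry ubiquitin or its relatives to ligases, 16 rose and 5 fell, with a median of 0.40. With mitochondrial scaling the median was -0.47, and 0 rose and 16 fell. Ube2d2a rose by 0.88 ± 0.10, Ube2q1 by 0.85 ± 0.10 and Ube2s, which acts with the anaphase-promoting complex, by 0.81 ± 0.09, and none of these passed with mitochondrial scaling (Ube2s was at -0.04). Of 8 E1 enzymes, which activate ubiquitin-like proteins, 1 rose and 3 fell (median -0.13). The one that rose, Uba1, which activates ubiquitin itself, was at 0.35 ± 0.11 (adjusted p = 0.0233), and at -0.48 with mitochondrial scaling, and is named after its values were seen. Nae1, a subunit of the NEDD8 E1, was at -1.05 ± 0.14, Uba6 at -0.56 ± 0.11 and Sae1, a subunit of the SUMO E1, at -0.37 ± 0.10, and Sae1 did not pass without 0 h replicate 2 (adjusted p = 0.162). The shares called in these lists stand beside the 22.0% higher and 21.2% lower of all tested genes. Among genes with a mean of at least 5 CPM the shares were 29.6% and 27.6%.

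**Figure D5:**
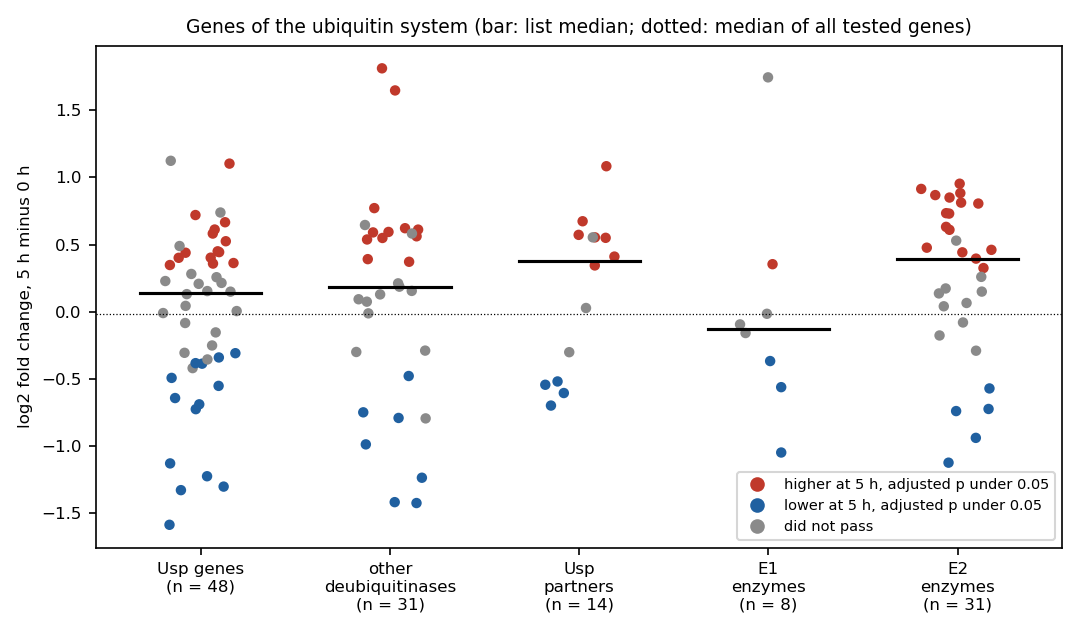
Log2 fold change (5 h minus 0 h, TMM) of the tested Usp genes and of the other lists of the ubiquitin system, each point a gene, bars for the list median and a dotted line for the median of all tested genes (-0.02). The Usp genes have a median of 0.14 and the E2 enzymes one of 0.40, and with mitochondrial scaling these medians are -0.70 and -0.47.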

How the data were processed

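The deposited values were whole numbers per gene for 4 libraries of 4sU-labelled RNA. Per the submitters' processing notes, the authors used HISAT2 2.2.1, StringTie 2.2.1 and DESeq2 1.42.0 with mm10, while the sources used here name neither their roles, nor the annotation, nor whether strand was counted. The deposited values were treated as estimated counts, since the row names follow StringTie's export, so 1 fragment can be worth several counts and intervals and floors cover counting error only. They were already whole, so rounding changed nothing.

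Genes kept by filterByExpr entered a quasi-likelihood fit (edgeR 4.0.16, TMM scaling), 5 h minus 0 h, with Benjamini-Hochberg adjustment over all tested genes. CPM values are TMM-scaled, and the SE is the log2 fold change over the square root of the F statistic. Alternatives used other scalings, filters, tools (DESeq2 1.42.0, limma 3.58.1), counts divided by 4, a replicate block and fits without each library. The fit was also run on simulated data in which few genes changed, which checks neither the scaling nor the error rates where many genes change.

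The members and lists were chosen with earlier results of these data known. Values in every library are given for members with a called log2 change of at least 1, the lowest adjusted p of each role group, the splicing-linked members, the 3 highest in CPM and related members called both ways. Of the other lists the 3 genes with the lowest adjusted p are named, and Uba1 and Wdr48 after their values were seen. Some genes of the ubiquitin system are not reported here. Spans, positions and upstream sequences are from RefSeq (GRCm38.p6), in which all 49 symbols matched.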

Additional observations from a re-analysis of the deposited data

How the results depend on the processing

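With DESeq2's size factors, DESeq2, limma-voom, no count filter, a stricter filter (at least 50 counts in every library of a group), counts divided by 4 and the replicate block, the counts of Usp genes and of all tested genes called each way stayed within 1.5 times those reported. The median log2 fold change of tested Usp members was 0.0036 with the stricter filter, which left 45 of them. With library totals 4 Usp genes were higher and the Usp median was -0.13, and all tested genes higher numbered 2297. With mitochondrial scaling 0 Usp genes were higher and 32 lower, with a median of -0.70, while all tested genes higher numbered 396 and all tested genes lower 8872. Over the fits without 1 library, Usp genes higher ran from 6 to 16, Usp genes lower from 8 to 14, all tested genes higher from 2721 to 3765, all tested genes lower from 2609 to 3834, and the Usp median from 0.072 to 0.12. The lowest counts of Usp genes came without 0 h replicate 2.

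Log2 fold changes of the opposite sign with library totals were Usp24 -0.053, Usp26 -0.011, Usp35 -0.26, Usp38 -0.040, Usp4 -0.11, Usp43 -0.13, Usp47 -0.12, Usp54 -0.059, Usp9x -0.22 and Uspl1 -0.044. With mitochondrial scaling they were Usp1 -0.42, Usp10 -0.12, Usp12 -0.40, Usp15 -0.49, Usp16 -0.26, Usp19 -0.43, Usp21 -0.18, Usp22 -0.44, Usp24 -0.64, Usp26 -0.60, Usp29 -0.14, Usp3 -0.33, Usp33 -0.50, Usp35 -0.82, Usp36 -0.31, Usp38 -0.63, Usp39 -0.39, Usp4 -0.68, Usp43 -0.70, Usp47 -0.71, Usp48 -0.49, Usp51 -0.50, Usp54 -0.64, Usp7 -0.23, Usp9x -0.80, Uspl1 -0.63, Vcpip1 -0.26 and Ube2s -0.037. A scaling moves all genes by about the same amount, by its construction.

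The Usp14 log2 fold change was 0.00016 with DESeq2, 0.0023 with limma-voom and 0.0022 with no count filter. The Usp35 log2 fold change was -0.082 with counts divided by 4, -0.035 with limma-voom and -0.035 with the stricter filter. Over the fits without 1 library the Usp14 log2 fold change ran from -0.12 to 0.11, the Usp35 log2 fold change from -0.24 to 0.38, the Usp43 log2 fold change from -0.14 to 0.41 and the Usp51 log2 fold change from -0.50 to 1.07. These 4 genes were not called with TMM, and the cause of the sign changes was not tested.

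The labels give both groups the numbers 1 and 2 without saying that a number marks a shared culture or day, and same-numbered libraries deviated together by r = 0.0505 across genes, so pairing was not established. With the replicate block 15 Usp genes were higher and 13 lower, all tested genes higher numbered 3837 and all tested genes lower 3545. Among the Usp genes Usp13 lost its call under the block, and the Usp24 log2 fold change passed there (adjusted p = 0.0418, edgeR). With 2 libraries a group, Usp50, Usp51, Usp43, Usp29, Usp25 and Usp26 had SEs of 0.30 to 0.52 on the log2 scale. Even the Usp50 change of 1.12 did not pass, so sizeable changes in such genes can go undetected.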
